A study of Mus musculus with 12 samples.

Results

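The genes examined here encode the subunits of the proteasome, the protease complex that degrades ubiquitin-tagged proteins. They were taken by name, as all protein-coding genes whose symbol is Psma, Psmb, Psmc or Psmd followed by a number, and 40 of the 53465 genes in the deposited expression table met that rule. The rule reads names and no measured value, though the family was chosen with earlier results of these data known. They fell into 7 genes of the alpha ring, 7 of the constitutive beta ring, the 3 immunoproteasome genes Psmb8, Psmb9 and Psmb10, 6 base ATPases, 3 other base genes, 8 lid genes, 3 assembly chaperones (Psmd5, Psmd9 and Psmd10) and 2 tissue-restricted genes, Psma8 of the testis and Psmb11 of the thymus. The last gene, Psmc3ip, met the rule by its symbol only, since its product is a recombination factor and no proteasome subunit. The 31 genes of the alpha ring, beta ring, base and lid are called the constitutive subunits below.

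RNA was sequenced from LSKs (Lin-Sca-1+c-Kit+ cells, the bone marrow fraction that holds the hematopoietic stem cells and multipotent progenitors) of Tespa1-/- mice, which carry the null allele of the strain B6.129S-Tespa1tm1Smoc, backcrossed to C57BL/6, and of their wild-type (Tespa1+/+) littermates. The mice were males of 8 to 10 weeks. LSKs were sorted by flow cytometry either from untreated mice or at day 9 after an injection of 5-fluorouracil (5-FU), an antimetabolite that kills cycling cells, and each of the 4 groups had 3 libraries. The labels do not say whether the libraries of a group came from separate mice, so p-values measure the spread between these libraries, which may be technical.

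The core of the proteasome is a stack of rings. The outer rings hold the alpha subunits, which gate the entrance, and the inner rings hold the beta subunits, of which Psmb5 (chymotrypsin-like), Psmb6 (caspase-like) and Psmb7 (trypsin-like) carry the proteolytic sites. A regulatory particle caps the core: in its base a ring of ATPases (Psmc genes) unfolds substrates, and its lid holds Psmd14, the enzyme that removes ubiquitin. In immune cells and under interferon, Psmb8, Psmb9 and Psmb10 take the places of Psmb5, Psmb6 and Psmb7 and change which peptides are cut for presentation on MHC class I. Hematopoietic cells are known to express the immunoproteasome without stimulation. Transcription of the constitutive subunits is known to be raised as a group by NFE2L1 when the proteasome is inhibited.

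Library totals on genes ran from 22118154 to 28275079 counts. The untreated Tespa1-/- libraries stood apart in the number of genes with a count, 27219 to 29523 against 21141 to 24745 in the other 9 libraries. Tespa1, the targeted gene, was at 34.5 to 34.9 CPM (counts normalised by library size and TMM factor) in untreated Tespa1-/- libraries against 43.1 to 51.0 in untreated Tespa1+/+ libraries, and at 17.2 to 20.7 against 47.1 to 57.2 after 5-FU, so it was lower in the Tespa1-/- libraries of both treatments but not at 0. All 9 LSK markers listed, among them Kit and Ly6a (Sca-1), had counts in every group. Their summed level was 1585 to 1638 CPM in untreated Tespa1+/+ LSKs, 1315 to 1356 CPM in untreated Tespa1-/- LSKs, 1292 to 1334 CPM in Tespa1+/+ LSKs after 5-FU and 777 to 840 CPM in Tespa1-/- LSKs after 5-FU. Kit, Cd34 and Flt3 gave most of that sum, and its members did not move together. With 5-FU in Tespa1+/+ LSKs, Flt3 and Cd34 fell (log2 fold changes of -0.96 and -0.57, edgeR adjusted p = 8.8e-06 and 0.00021), while Slamf1 and Mecom, named with them after their values were seen, rose (1.73 and 0.98, adjusted p = 0.0033 and 0.00076). With 5-FU in Tespa1-/- LSKs, 3 of the 9 rose (Slamf1 by 2.25, Procr by 0.67 and Mecom by 0.65 on the log2 scale) and 3 fell (Flt3 at -1.55, Cd34 at -1.08 and Cd48 at -0.38), against 10.7% and 8.64% of all genes. Between the genotypes after 5-FU, 6 of the 9 markers were lower in Tespa1-/- and none higher, against 5.78% and 7.34% of all genes, with log2 differences of -0.45 for Kit, -1.24 for Ly6a, -0.78 for Cd34, -0.89 for Flt3, -0.95 for Mecom and -1.16 for Hlf. Between the untreated genotypes 3 of the 9 were lower (3.59% of all genes), and all 9 values were below 0. The part of these markers in the values of the proteasome genes was not tested.

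To show what lies before the RefSeq starts of genes that moved and of a gene that moved the other way, the 250 bases upstream of the RefSeq start are given for 3 genes that rose in Tespa1-/- LSKs after 5-FU (Psmc5, Psmd9 and Psmd2) and for Psmb8, which fell. Capitals mark matches on either strand to 6 motifs: CACGTG (the E-box of MYC and MAX), TGACNNNGC (the antioxidant response element core of factors such as NFE2L1), the interferon-stimulated response element core (GAAA, any 2 bases, GAAA), CCAAT (the NF-Y box), CCGGAAG (an ETS site) and the site of nuclear respiratory factor 1 (GCGCA, any base, GCGC). The positions are those of GRCm38.p6, and each sequence is written 5′ to 3′ on the strand of its gene, which is the plus strand for these 4 genes. The windows are chr11:106255935-106256184 for Psmc5, chr5:123227940-123228189 for Psmd9, chr16:20651402-20651651 for Psmd2 and chr17:34197945-34198194 for Psmb8. The gene models of the deposited table can start earlier than RefSeq's, at 34197721 for Psmb8 and 123169413 for Psmd9, so that both of these windows lie inside the genes as annotated there, and at 106256154 for Psmc5, inside the end of its window.
Psmc5: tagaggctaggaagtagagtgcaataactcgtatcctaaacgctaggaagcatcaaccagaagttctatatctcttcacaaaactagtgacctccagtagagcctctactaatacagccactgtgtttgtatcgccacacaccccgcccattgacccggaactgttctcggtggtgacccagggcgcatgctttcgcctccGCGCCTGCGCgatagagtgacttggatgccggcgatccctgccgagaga
Psmd9: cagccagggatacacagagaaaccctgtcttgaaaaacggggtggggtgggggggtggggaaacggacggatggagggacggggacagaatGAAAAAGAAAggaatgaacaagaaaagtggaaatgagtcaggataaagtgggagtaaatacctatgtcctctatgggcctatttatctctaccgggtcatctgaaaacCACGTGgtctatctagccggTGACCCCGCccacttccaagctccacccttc
Psmd2: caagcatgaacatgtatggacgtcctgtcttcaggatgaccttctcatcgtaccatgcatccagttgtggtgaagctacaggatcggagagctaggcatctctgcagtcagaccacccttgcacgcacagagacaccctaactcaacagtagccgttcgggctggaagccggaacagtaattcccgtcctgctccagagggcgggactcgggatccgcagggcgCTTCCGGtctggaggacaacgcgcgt
Psmb8: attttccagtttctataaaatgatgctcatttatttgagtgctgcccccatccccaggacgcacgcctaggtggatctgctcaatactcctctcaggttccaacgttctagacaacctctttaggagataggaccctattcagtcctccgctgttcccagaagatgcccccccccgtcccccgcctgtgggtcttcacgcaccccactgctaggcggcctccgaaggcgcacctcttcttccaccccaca
The Psmc5 stretch held a match to the nuclear respiratory factor 1 site and the Psmd2 stretch a match to CCGGAAG, both on the other strand, and the Psmd9 stretch held matches to the interferon-stimulated response element core, CACGTG and TGACNNNGC. The Psmb8 stretch held a match to none of the 6 motifs, which says only that those letters are not in this window. RefSeq windows of 300 bases, from 250 before to 50 after the start, were at hand for 33 of the 40 genes. The shares below differ in unit. Each of the 33 genes was counted once if any of its windows matched, while the share of all windows counts every window singly. A gene with more than 1 window thus had more chances to match, which can raise the share of the 33. CCGGAAG was in 11 of the 33 (33.3%) and in 8.86% of all 32851 windows. The nuclear respiratory factor 1 site was in 6 of the 33 (18.2%) and in 4.6% of all windows. Of the others, CACGTG was in 9.09% of the 33 and 7.15% of all windows, TGACNNNGC in 15.2% and 12.4%, the interferon-stimulated response element core in 9.09% (3 genes) and 3.44% and CCAAT in 42.4% and 37.4%. A further motif, GGGCGG (the SP1 site), left in lower case above, was in 57.6% of the 33 and 35.7% of all windows. The ETS matches were spread over roles, with 3 in base ATPase genes (Psmc1, Psmc2 and Psmc6), 2 in other base genes (Psmd2 and Psmd4), 4 in lid genes (Psmd6, Psmd11, Psmd12 and Psmd13) and the other two in Psma6 and Psmc3ip. A match is a description of the sequence and not of a bound factor.

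All 31 constitutive subunit genes were well expressed in LSKs. Compared per length, as FPKM averaged over the 12 libraries, they ran from 5.84 (Psmd11, a lid scaffold subunit) to 96.7 (Psmb1, a beta subunit without a proteolytic site), with a median of 17.4. The lowest of them still lay at the 78.9th percentile of the genes with at least 10 counts. Subunits that sit together in the particle at equal copy number were thus 16.6-fold apart in FPKM, and 5.74-fold apart when the exonic lengths of GENCODE M21 were used in place of the lengths behind the deposited values. The place of Psmb1 rests on that length, since it was first of the 40 genes by FPKM and 21st with the M21 length. Of the constitutive subunits, Psmd7 (lid), Psmc1 and Psmc5 (base ATPases) and Psma6 and Psma4 (alpha ring) stood among the first 7 genes on both scales.

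Psmb8 was second of the 40 genes by FPKM and first with the M21 length, at an FPKM of 64.9 ± 4.61 (SD, n = 3) in untreated Tespa1+/+ LSKs. The other two immunoproteasome genes were far lower, Psmb10 at an FPKM of 8.20 ± 0.240 and Psmb9 at 4.65 ± 0.237. In FPKM the order Psmb8, Psmb10, Psmb9 held in each of the 4 groups, and neighbours in it were separated by more than their SDs. The assembly chaperones were low, at an FPKM of 2.18 for Psmd9 (a chaperone of the base ATPases), 4.27 for Psmd5 and 6.53 for Psmd10. Psma8, a testis paralog of Psma7 whose reads may be shared with it, was at 2.86. Psmb11, the thymus-specific beta subunit, had 0 counts in 7 libraries and few in the others, and was the only one of the 40 genes that the filter on low counts removed, so 39 were tested.

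**Figure D1:**
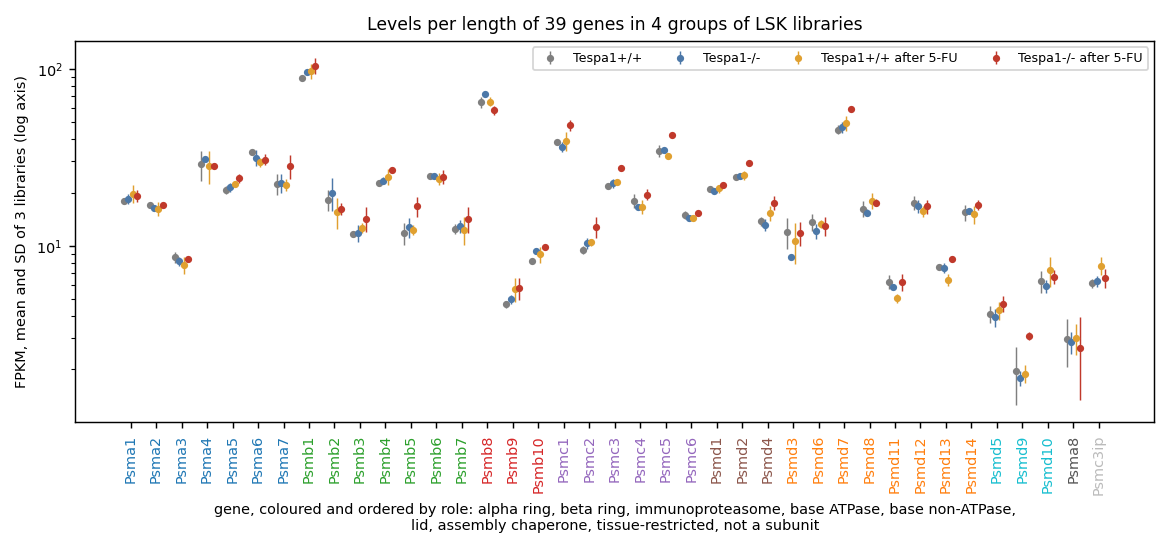
FPKM (log axis) of the 39 tested genes in the 4 groups, as the mean and SD of 3 libraries, ordered and coloured by role. Psmb1 and Psmb8 lie highest, the chaperones Psmd9 and Psmd5 and the testis gene Psma8 lowest, and for most genes the 4 groups lie close together.

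Spread between replicates was small for most of these genes. The coefficient of variation of CPM across the 3 libraries of a group had a median over the 39 genes of 6.28% (Tespa1+/+) and 5.999% (Tespa1-/-) before treatment, and of 9.39% and 7.57% at day 9. Psmb6 was the steadiest gene in both untreated groups (0.736% and 0.417%). The widest value of a group was 35.6% for Psmd9, 20.7% for Psmb2, 26.6% for Psmd3 and 49.4% for Psma8, the groups taken in that order.

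The first comparison asked how proteasome genes differ at day 9 after 5-FU in Tespa1+/+ LSKs. In bulk RNA such as this, a different share of some kind of cell and a different amount of RNA per cell cannot be told apart. None of the 39 genes passed edgeR's quasi-likelihood test at a Benjamini-Hochberg adjusted p below 0.05, while 7.95% of the 17002 genes tested did (3.77% higher and 4.18% lower). Of the 39, 3 had an unadjusted p below 0.05 (21.5% of all genes did), and DESeq2 called 1 gene, lower (12.1% of all genes in either direction). By the study's thresholds, an unadjusted p below 0.05 and a fold above 1.5, none was called, against 9.88% of all genes. The median log2 fold change was -0.032 over the 39 genes and 0.014 over all genes tested, and 16 of 39 values were above 0 (41.0%, against 51.7% of all genes). With library totals in place of TMM factors the direction turned, to a median of 0.014 and 21 of 39 values above 0. The lid gave the lowest median, -0.14 over 8 genes, with Psmd11 at -0.35 ± 0.10 (SE, adjusted p = 0.068) and Psmd13 at -0.29 ± 0.10 (adjusted p = 0.11) as its lowest values. The groups did not overlap for 5 of the 39 genes (12.8%, against 28.7% of all genes tested). Of these, 4 were lower after 5-FU (Psmd11, Psmd13, Psma6 and Psmc5), against 15.5% of all genes, and Psmc3ip was higher, against 13.2%.

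The second comparison asked the same of Tespa1-/- LSKs. Here 8 genes rose and 1 fell of the 39, or 23.1%, near the 19.4% called among all 17228 genes tested, so the share called is not a result about these genes. By direction, 20.5% of the 39 rose where 10.7% of all genes did, and 2.56% fell where 8.64% of all genes did. The median log2 fold change was 0.16 over the 39 genes and -0.0094 over all genes, and 32 of the 39 values were above 0 (27 with upper-quartile factors), where 49.1% of all genes were. By the study's thresholds 1 gene, Psmd9, was called, against 14.4% of all genes. The 2 Tespa1-/- groups did not overlap for 21 of the 39 genes (53.8%, against 38.6% of all genes), 19 of them higher after 5-FU (48.7%, against 19.8% of all genes), and 2 lower, Psmb8 and Psma4 (5.13%, against 18.8%).

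Described by role, the rises lay in the regulatory particle and in 1 of its 3 assembly chaperones, Psmd9. Of the 6 base ATPases, which form the unfolding ring, 3 rose: Psmc1 by 0.39 ± 0.07 (log2 fold change, SE, adjusted p = 0.0064), Psmc5 by 0.28 ± 0.06 (adjusted p = 0.016) and Psmc3 by 0.28 ± 0.06 (adjusted p = 0.012). The Psmc5 call was lost without the second or the third untreated Tespa1-/- library (adjusted p = 0.069 and 0.062) and the Psmc3 call without the first (0.0503). The other 3 ATPases also had values above 0, between 0.08 and 0.30, and the 2 groups overlapped for none of the 6. Of the 3 other base genes, Psmd4, a ubiquitin receptor, and Psmd2, a scaffold subunit, rose, the latter by 0.23 ± 0.05 (adjusted p = 0.0081). Of the 8 lid genes, Psmd3 and Psmd7 rose, Psmd7 by 0.33 ± 0.06 (adjusted p = 0.0056). None of the 7 alpha ring genes passed, with a median of 0.036 that turned to -0.027 with upper-quartile factors. None of the 7 constitutive beta genes passed either, with a median of 0.13 (0.063 with upper-quartile factors). Whether the roles differ from each other was not tested.

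Psmd9, which helps to assemble the base and has no place in the finished proteasome, had the largest rise. Its CPM was 15.4, 12.7 and 14.8 in untreated Tespa1-/- LSKs and 24.6, 23.3 and 26.0 in Tespa1-/- LSKs after 5-FU. Every treated library lay above every untreated library, and the log2 fold change was 0.78 ± 0.13 (SE, adjusted p = 0.0029). In Tespa1+/+ LSKs its CPM was 14.7, 11.1 and 22.3 before and 13.0, 15.2 and 16.1 after 5-FU, so the third untreated library was high and the groups overlapped (log2 fold change -0.10 ± 0.25, adjusted p = 0.87).

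Psmd3, a large lid subunit, had the second largest rise. Its CPM was 67.9, 67.8 and 66.9 in untreated Tespa1-/- LSKs and 79.1, 87.7 and 106 after 5-FU, without overlap (log2 fold change 0.42 ± 0.10, adjusted p = 0.018). Its untreated Tespa1+/+ values were 101, 73.4 and 110 CPM, so the Tespa1-/- libraries after 5-FU lay within their range, and the untreated Tespa1-/- libraries lay below them. In Tespa1+/+ LSKs after 5-FU, Psmd3 was at 105, 68.9 and 67.2 CPM, with the first library apart from the others. This call was lost when any of the 3 untreated Tespa1-/- libraries was left out (adjusted p = 0.059 to 0.065) and when all 12 libraries entered 1 fit (0.119).

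Psmd4 was at 90.2, 95.8 and 82.2 CPM in untreated Tespa1-/- LSKs and at 119, 108 and 128 CPM after 5-FU. The groups did not overlap, and the log2 fold change was 0.40 ± 0.08 (SE, adjusted p = 0.010). In Tespa1+/+ LSKs Psmd4 was at 93.5, 90.4 and 101 CPM before and at 105, 108 and 89.4 CPM after 5-FU, groups that overlapped.

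Psmb8 was the gene that fell. Its CPM was 281, 289 and 270 in untreated Tespa1-/- LSKs and 218, 238 and 215 after 5-FU, all 3 treated libraries lying below all 3 untreated ones (log2 fold change -0.33 ± 0.05, SE, adjusted p = 0.0036). It stayed below 0.05 under all 14 alternatives run for it (adjusted p from 3.84e-06 to 0.021). In Tespa1+/+ LSKs its CPM was 275, 235 and 256 before and 263, 232 and 244 after 5-FU, which overlapped (log2 fold change -0.035 ± 0.071, adjusted p = 0.83). The difference between the genotypes in this change was -0.28 ± 0.09 on the log2 scale and did not pass the test (adjusted p = 0.11).

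**Figure D2:**
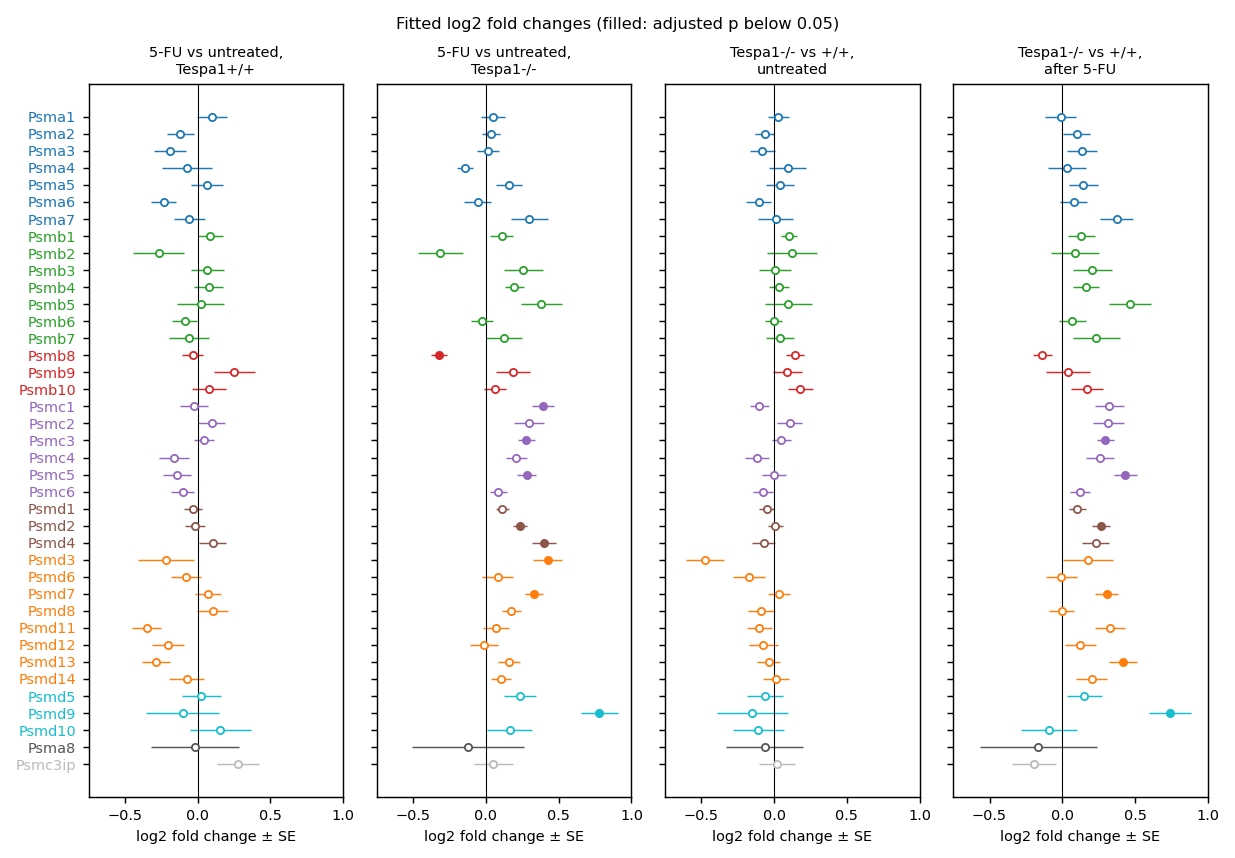
Fitted log2 fold changes with SE of the 39 tested genes in the 4 pairwise comparisons, coloured by role, with filled points at an adjusted p below 0.05. Filled points appear in the 2 panels that involve Tespa1-/- LSKs after 5-FU, 9 in the change with 5-FU and 6 in the comparison with Tespa1+/+ LSKs, and Psmb8 is the filled point below 0.

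In untreated LSKs, where the third comparison set Tespa1-/- against Tespa1+/+, none of the 39 genes passed edgeR's test, against 5.23% of the 17055 genes tested (1.64% higher and 3.59% lower). An unadjusted p below 0.05 was seen for 2 genes (18.5% of all genes), and DESeq2 called 1, lower (8.37% of all genes in either direction). The study's thresholds called none, against 6.74% of all genes. The median log2 fold change was -5.5e-05 over the 39 genes and 0.0071 over all genes, and 19 of 39 values were above 0, where 51.2% of all genes were. Psmd3 had the lowest value, -0.47 ± 0.13 (SE, adjusted p = 0.088), and no overlap between the groups, and it was called lower when the second untreated Tespa1+/+ library was left out. Psmb10 was at 38.4, 39.01 and 36.6 CPM in untreated Tespa1-/- LSKs and 34.9, 34.1 and 32.6 CPM in untreated Tespa1+/+ LSKs, groups without overlap that differed by 0.18 ± 0.08 on the log2 scale (adjusted p = 0.31). The groups did not overlap for 4 of the 39 genes (10.3%, against 25.5% of all genes tested), Psmb1 and Psmb10 being higher in Tespa1-/- (11.4% of all genes) and Psmd3 and Psma2 lower (14.1%).

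The fourth comparison set Tespa1-/- against Tespa1+/+ LSKs after 5-FU. It shares the treated Tespa1-/- libraries with the second comparison, so the results of both rest in part on the same libraries. Of the 39 genes 6 were higher in Tespa1-/- and none lower, 15.4% against 13.1% of all 17239 genes tested in either direction, so again the share called is near that of all genes. Among all genes 7.34% were called higher and 5.78% lower. The median log2 fold change was 0.15 over the 39 genes and -0.0097 over all genes, with 32 of 39 values above 0 (30 with upper-quartile factors), where 49.1% of all genes were. The study's thresholds called 1, Psmd9, against 11.7% of all genes. The groups did not overlap for 16 of the 39 genes, all higher in Tespa1-/- (41.0%, against 17.2% of all genes higher, 15.9% lower and 33.1% either way).

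The 6 genes were Psmd9, the ATPases Psmc5 and Psmc3, the scaffold Psmd2 and the lid genes Psmd13 and Psmd7. Psmd9 was higher by 0.74 ± 0.14 (log2, SE, adjusted p = 0.0086), with the values given above and no overlap between the 2 treated groups. Psmc5 was at 66.9, 67.4 and 70.0 CPM in Tespa1-/- and at 48.8, 51.9 and 50.8 CPM in Tespa1+/+ LSKs after 5-FU. Every Tespa1-/- library lay above every Tespa1+/+ library, and the difference was 0.43 ± 0.08 on the log2 scale (adjusted p = 0.0067). In untreated LSKs Psmc5 was at 57.7, 55.1 and 54.9 CPM in Tespa1-/- and at 52.1, 58.1 and 58.9 CPM in Tespa1+/+, which overlapped.

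Psmd13, a lid scaffold subunit, was at 57.6, 58.1 and 54.2 CPM in Tespa1-/- and at 40.6, 46.3 and 40.5 CPM in Tespa1+/+ LSKs after 5-FU. The groups did not overlap, and the log2 difference was 0.42 ± 0.09 (SE, adjusted p = 0.019). In untreated LSKs it was at 46.9, 53.2 and 51.8 CPM in Tespa1-/- and at 53.0, 51.2 and 53.0 CPM in Tespa1+/+, so the treated Tespa1+/+ libraries were the low ones for this gene, below all other 9. Of its exonic bases 10.1% lie in Sirt3, a gene on the opposite strand, and the use of strand in counting is not given in the sources used here. Of the exonic bases of Psmc3 8.2% lie in Slc39a13, also on the opposite strand. Psmc3, Psmd7 and Psmd2 were higher by 0.30 ± 0.06 (adjusted p = 0.011), 0.30 ± 0.08 (adjusted p = 0.031) and 0.27 ± 0.06 (adjusted p = 0.021) on the log2 scale. The count fell to 3 when the first library of either treated group was left out, where 8.43% (without the Tespa1-/- library) and 9.47% (without the Tespa1+/+ library) of all genes were called, and DESeq2 called 11, or 28.2%, against 17.3% of all genes. The calls of Psmc3, Psmc5 and Psmd9 held under all 14 alternatives run, while those of Psmd13, Psmd2 and Psmd7 held under 10, 9 and 6 of them.

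By role, all 6 base ATPases had values above 0 in the fourth comparison, with a median log2 difference of 0.31 and no overlap between the groups for any of them. All 7 constitutive beta genes also had values above 0, with a median of 0.16, but none passed. The medians were 0.23 over the 3 other base genes, 0.19 over the 8 lid genes and 0.10 over the 7 alpha ring genes, and these directions held with each of the 4 other scalings run.

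**Figure D3:**
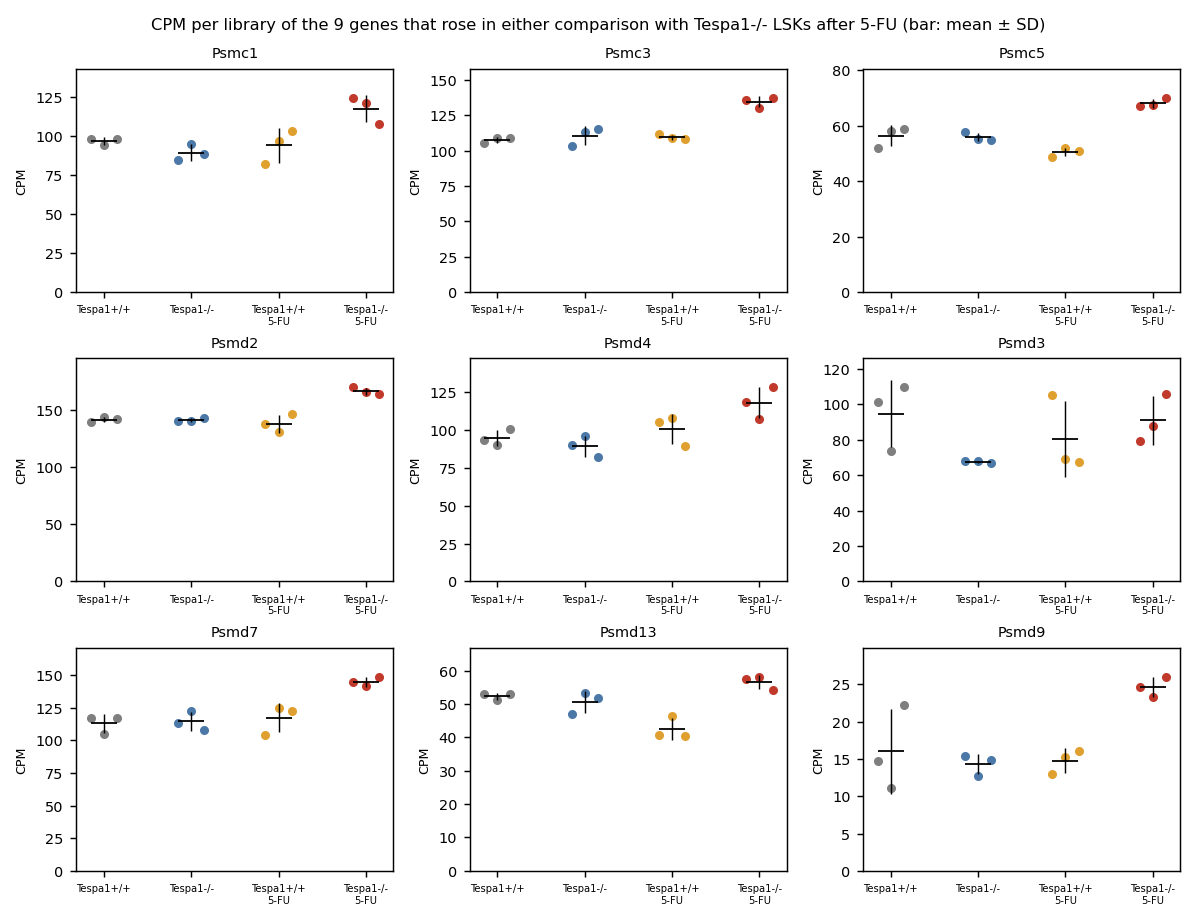
CPM in each library of the 9 genes that rose in the change with 5-FU in Tespa1-/- LSKs or were higher in Tespa1-/- than Tespa1+/+ LSKs after 5-FU, with the mean and SD of each group. Psmc1, Psmc3, Psmc5, Psmd2, Psmd7, Psmd9 and Psmd13 have all 3 treated Tespa1-/- libraries above the other 9, while Psmd3 overlaps with both Tespa1+/+ groups and Psmd4 with treated Tespa1+/+.

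Whether 5-FU changed these genes differently in the genotypes was tested as the interaction over the 12 libraries. Psmc5 and Psmd13 passed, 2 of 39 (5.13%), against 5.01% of all 18696 genes tested (3.02% higher and 1.99% lower), so the share called is again not a result about these genes. The study's thresholds called 2 genes, Psmd9 and Psmd3, against 10.4% of all genes. The change with 5-FU was larger in Tespa1-/- by 0.44 ± 0.10 for Psmc5 (log2, SE, adjusted p = 0.031) and by 0.46 ± 0.12 for Psmd13 (adjusted p = 0.040). Both had values below 0 in Tespa1+/+ LSKs that did not pass (-0.14 and -0.29), and in Tespa1-/- LSKs Psmc5 rose while Psmd13 was at 0.16 and did not pass. Both calls were lost with library totals alone (adjusted p = 0.052 and 0.064) or with upper-quartile factors (0.072 and 0.083) in place of TMM. The Psmc5 call held without the first untreated Tespa1+/+ library (adjusted p = 0.015) and the Psmd13 call without the second treated Tespa1+/+ library (0.032), and each was lost when any other library was left out (0.060 to 0.088 for Psmc5 and 0.061 to 0.11 for Psmd13). The median over the 39 genes was 0.20 against -0.021 over all genes, and 31 of 39 values were above 0, where 48.1% of all genes were. With upper-quartile factors these medians were 0.12 and -0.094, and 29 of 39 values were above 0. Psmd9 had the largest value, 0.89 ± 0.30 (adjusted p = 0.11).

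Levels were then summed over each subcomplex. The 6 base ATPases summed to 528 to 557 CPM in Tespa1-/- LSKs after 5-FU and to 437 to 471 CPM in the other 9 libraries, a mean 22.0% above that of Tespa1+/+ LSKs after 5-FU. The 3 other base genes summed to 462 to 485 CPM against 400 to 426 CPM. The 3 assembly chaperones summed to 75.1 to 83.8 CPM against 59.6 to 74.6 CPM. In that sum Psmd9 was the gene without overlap, while Psmd5 (39.5 to 47.9 CPM against 34.03 to 42.8 CPM in Tespa1+/+ LSKs after 5-FU) and Psmd10 (10.1 to 12.2 against 10.2 to 14.5 CPM) overlapped. For the sums of the base ATPases, the other base genes and the chaperones the treated Tespa1-/- libraries did not overlap with the others. The lid overlapped, at 609 to 637 CPM against 533 to 635 CPM, as did the alpha ring (494 to 517 CPM against 437 to 514 CPM) and the beta ring (369 to 420 CPM against 351 to 374 CPM). The 3 immunoproteasome genes summed to 290 to 313 CPM against 299 to 357 CPM, a sum that was mostly Psmb8, while Psmb10 was highest in the treated Tespa1-/- libraries. Over all 31 constitutive subunits the treated Tespa1-/- libraries summed to 2541 ± 27.1 CPM (SD, n = 3) and the treated Tespa1+/+ libraries to 2220 ± 60.4 CPM, where the untreated ones gave 2253 ± 36.4 CPM (Tespa1-/-) and 2322 ± 56.8 CPM (Tespa1+/+). Taken singly, 11 of the 40 genes had all 3 treated Tespa1-/- libraries above the other 9, as did 8.56% of the 18696 genes tested over the 12 libraries, and none had all 3 below, against 6.18% of those genes.

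**Figure D4:**
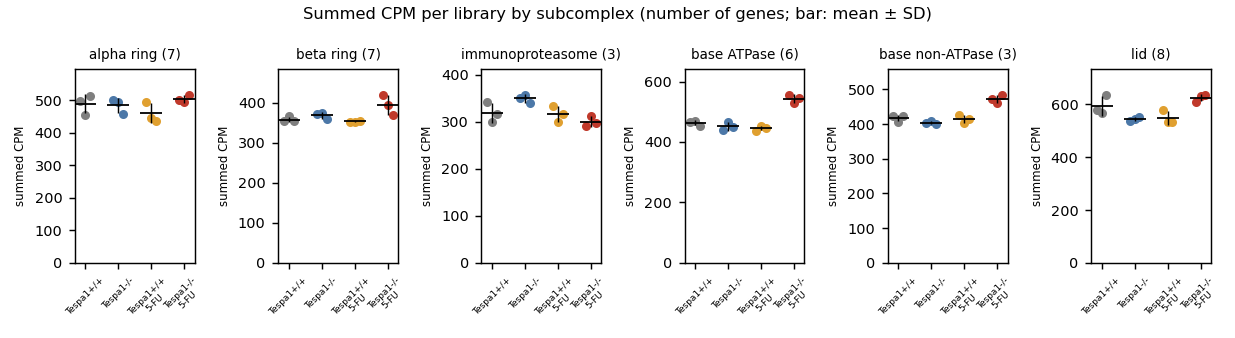
Summed CPM per library over the genes of 6 subcomplexes, with the mean and SD of each group. The treated Tespa1-/- libraries stand above all others for the base ATPases and the other base genes, and overlap with other groups for the alpha ring, beta ring and lid, while the immunoproteasome sum is lowest there and overlaps with both Tespa1+/+ groups.

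The catalytic subunits and their replacements were followed pair by pair. Before treatment Psmb5 was at 15.4, 19.9 and 19.5 CPM in Tespa1+/+ and 16.6, 20.4 and 21.3 CPM in Tespa1-/- LSKs. After 5-FU it was at 18.7, 19.4 and 16.9 CPM in Tespa1+/+ and 29.0, 23.9 and 23.1 CPM in Tespa1-/- LSKs. The last group lay above all others, with log2 differences of 0.47 ± 0.14 from Tespa1+/+ after 5-FU (SE, adjusted p = 0.063) and 0.38 ± 0.14 from untreated Tespa1-/- (adjusted p = 0.099), neither past the test. Psmb8, its replacement, has its values above. The FPKM ratio of Psmb8 to Psmb5 was 7.04, 4.65 and 5.19 (Tespa1+/+) and 6.70, 5.59 and 5.01 (Tespa1-/-) before treatment. It was 5.55, 4.72 and 5.71 (Tespa1+/+) and 2.97, 3.95 and 3.68 (Tespa1-/-) after 5-FU. The treated Tespa1-/- libraries were the lowest and did not overlap with any other group, with log2 differences of -0.71 from untreated Tespa1-/- and -0.60 from treated Tespa1+/+ LSKs, each at an exact two-sided permutation p of 0.1, the smallest that 3 against 3 libraries allow. With M21 lengths the ratios were lower throughout, at a mean of 3.79 in untreated Tespa1+/+ LSKs where the deposited FPKM gave 5.63, and the differences were the same.

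Psmb6 was at 77.7, 78.8 and 78.3 CPM (Tespa1+/+) and 77.3, 77.2 and 77.8 CPM (Tespa1-/-) before treatment, and at 69.8, 69.1 and 79.6 CPM (Tespa1+/+) and 79.7, 80.7 and 68.6 CPM (Tespa1-/-) after 5-FU. Psmb9, its replacement, was at 31.2, 30.6 and 28.0 CPM (Tespa1+/+) and 31.3, 29.8 and 33.8 CPM (Tespa1-/-) before treatment, and at 38.6, 28.8 and 38.2 CPM (Tespa1+/+) and 31.5, 35.3 and 41.6 CPM (Tespa1-/-) after 5-FU. The treated groups overlapped with each other for both genes, and neither gene passed in any comparison. The Psmb9 to Psmb6 FPKM ratio was 0.189 ± 0.0111 (SD, n = 3) in untreated Tespa1+/+ and 0.238 ± 0.0336 in Tespa1+/+ LSKs after 5-FU, without overlap (exact permutation p = 0.1), and 0.201 ± 0.0121 and 0.236 ± 0.0553 in the Tespa1-/- groups, which overlapped. Of the exonic bases of Psmb9 5.8% lie in Tap1 on the opposite strand.

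Psmb7 was at 42.9, 47.7 and 45.05 CPM (Tespa1+/+) and 49.1, 41.3 and 48.1 CPM (Tespa1-/-) before treatment, and at 48.5, 46.1 and 34.1 CPM (Tespa1+/+) and 59.97, 46.7 and 44.7 CPM (Tespa1-/-) after 5-FU. Psmb10, its replacement, was at 31.6, 38.99 and 35.4 CPM in Tespa1+/+ and 40.6, 39.1 and 39.6 CPM in Tespa1-/- LSKs after 5-FU. For Psmb10 all 3 treated Tespa1-/- libraries thus lay above the other 9, by 0.17 ± 0.11 on the log2 scale over treated Tespa1+/+ LSKs (SE, adjusted p = 0.37). The margin was narrow, with the lowest of these libraries at 39.1 CPM and the highest treated Tespa1+/+ library at 38.99 CPM. From untreated Tespa1-/- LSKs the log2 difference was 0.06 ± 0.08 (SE, adjusted p = 0.63). The Psmb10 to Psmb7 ratio overlapped between the groups in every comparison. Of the exonic bases of Psmb7 11.8% lie in Nek6 on the opposite strand. Of the 3 immunoproteasome genes, Psmb8 thus fell with 5-FU in Tespa1-/- LSKs, and Psmb9 and Psmb10 did not pass in any comparison.

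**Figure D5:**
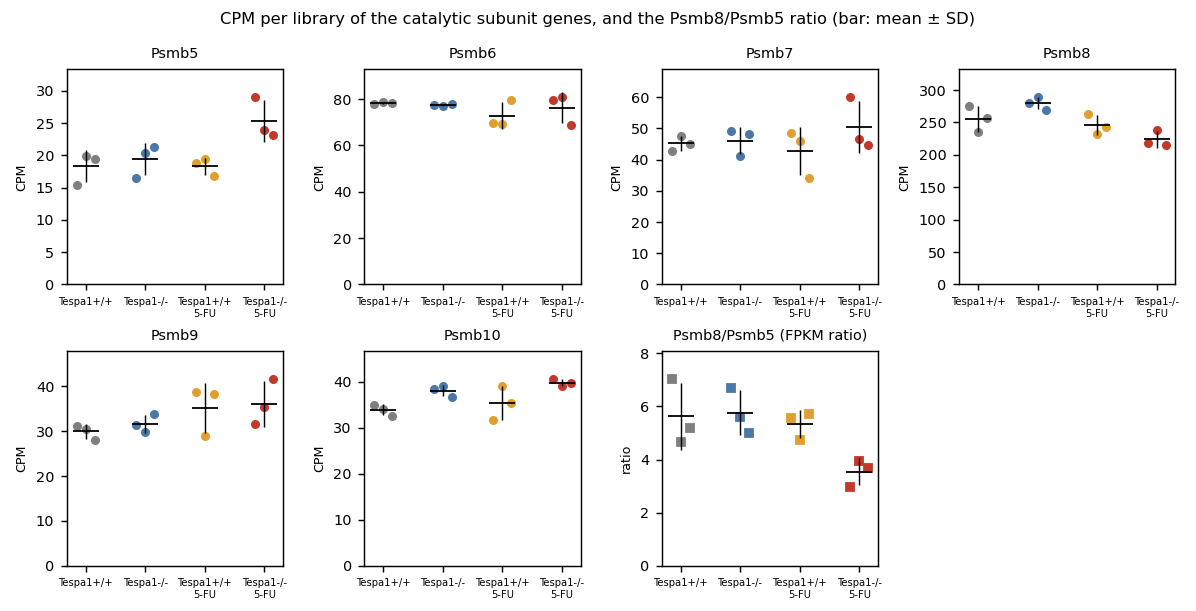
CPM in each library of the constitutive catalytic genes Psmb5, Psmb6 and Psmb7 and of their immunoproteasome replacements Psmb8, Psmb9 and Psmb10, and the Psmb8 to Psmb5 FPKM ratio, with the mean and SD of each group. In Tespa1-/- LSKs after 5-FU Psmb5 lies highest and the ratio lowest, at 3.53 ± 0.507 against group means of 5.33 to 5.77.

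Other genes of the pathway were counted by list. Of the 7 further subunits and activators, Sem1, the smallest lid subunit, rose with 5-FU in Tespa1-/- LSKs by 0.43 ± 0.05 (log2, SE, adjusted p = 0.00080) and was higher than in treated Tespa1+/+ LSKs by 0.54 ± 0.06 (adjusted p = 0.00053). Its mean CPM was 112 (Tespa1+/+) and 132 (Tespa1-/-) before treatment and 122.6 and 178 after 5-FU. Adrm1, a ubiquitin receptor, was at 0.09 ± 0.08 in the change with 5-FU in Tespa1-/- LSKs. Psme1, a subunit of the interferon-induced PA28 activator, fell there by 0.27 ± 0.05 on the log2 scale (adjusted p = 0.0042). In all, 2 of these 7 (Sem1 and Psmf1, an inhibitor named after its value was seen) rose and 1 fell with 5-FU in Tespa1-/- LSKs (10.7% and 8.64% of all genes), 1 was higher in Tespa1-/- than in Tespa1+/+ LSKs after 5-FU (7.34% of all genes), and none passed in Tespa1+/+ LSKs or between untreated genotypes.

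None of the 5 assembly factors tested (Psmg1 first among them) and none of the 7 genes of transcription control passed in any of the 5 comparisons, Nfe2l1 being at 0.56 ± 0.31 with 5-FU in Tespa1-/- LSKs (log2, SE, adjusted p = 0.26). Of 13 genes that handle ubiquitin for the proteasome, none rose in any comparison. Of the 13, 4 fell with 5-FU in Tespa1-/- LSKs (8.64% of all genes), 1 fell with 5-FU in Tespa1+/+ LSKs (4.18%) and 2 were lower in Tespa1-/- before treatment (3.59%). Their median log2 fold change with 5-FU was -0.14 in Tespa1+/+ and -0.13 in Tespa1-/- LSKs, where that of the 39 proteasome genes was -0.032 and 0.16. Between treated genotypes the median of the 13 genes was -0.039, and none of them passed.

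Of 13 genes of MHC class I peptide processing and its regulators, 2 were higher and 5 lower in Tespa1-/- than in Tespa1+/+ LSKs after 5-FU, where 7.34% of all genes were higher and 5.78% lower. Tap1, the peptide transporter that neighbours Psmb9, was among the lower, with a log2 difference of -0.34 ± 0.09 (SE, adjusted p = 0.045), and its mean CPM was 153 in Tespa1+/+ and 121 in Tespa1-/- LSKs. Also among the lower, and named after their values were seen, were Erap1, a peptide trimming enzyme, and Irf1 and Nlrc5, which are known to drive MHC class I transcription, with log2 differences of -0.34, -0.58 and -0.59. The 2 higher genes were the chaperones Calr and Pdia3, at 0.22 and 0.24. With 5-FU in Tespa1-/- LSKs, 1 of the 13 rose and 4 fell (10.7% and 8.64% of all genes). Erap1, Irf1 and Nlrc5, named here too after their values were seen, were among those that fell. Genes of the list also passed in both comparisons without treated Tespa1-/- libraries. In untreated LSKs, 3 of the 13 were lower in Tespa1-/- and none higher (3.59% and 1.64% of all genes), among them Irf1 at -0.53 (adjusted p = 0.0090) and B2m, the light chain of MHC class I, at -0.32 (adjusted p = 0.014). With 5-FU in Tespa1+/+ LSKs, Irf1 and B2m fell by 0.54 and 0.33 on the log2 scale (adjusted p = 0.0055 and 0.0018) and Tap1 rose by 0.46 (adjusted p = 0.025), 2 and 1 of the 13 (4.18% and 3.77% of all genes).

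Other features moved with the group in which the proteasome genes stood apart. The mitochondrial genome took 8.15% to 8.71% of the counts in the treated Tespa1-/- libraries and 9.42% to 10.2% in the other 9. Markers of other cells moved with it too. The 10 neutrophil genes summed to 988 to 1007 CPM in Tespa1-/- LSKs after 5-FU, to 2.58 to 6.73 CPM in Tespa1+/+ LSKs after 5-FU, to 3.996 to 4.89 CPM in untreated Tespa1-/- LSKs and to 0.498 to 1.42 CPM in untreated Tespa1+/+ LSKs. All 10 had counts in the treated Tespa1-/- group, whereas Cd177, Camp, Ly6g and Ltf were at 0 in untreated Tespa1+/+, Cd177, Retnlg and Ly6g in untreated Tespa1-/-, and Cd177, Retnlg and Fcnb in treated Tespa1+/+ LSKs. The 7 erythroid genes summed to 348 to 365 CPM in treated Tespa1-/- LSKs and to 20.4 to 56.1 CPM in the other libraries. The 10 proliferation genes summed to 3596 to 3675 CPM against 2495 to 2649 CPM, with 9 of 10 higher in Tespa1-/- than Tespa1+/+ LSKs after 5-FU (7.34% of all genes). The 4 myeloid granule genes summed to 4489 to 4768 CPM in treated Tespa1-/-, 3448 to 3646 CPM in untreated Tespa1-/-, 2578 to 2621 CPM in untreated Tespa1+/+ and 2457 to 2669 CPM in treated Tespa1+/+ LSKs. The 4 B cell genes summed to 82.9 to 95.2 CPM and 69.0 to 75.4 CPM in the treated Tespa1-/- and Tespa1+/+ groups and to 19.0 to 30.8 CPM in the untreated libraries, and the 3 megakaryocyte genes to 160 to 165 CPM, 106 to 120 CPM and 32.1 to 62.5 CPM in the same order. Every erythroid, proliferation, granule, B cell and megakaryocyte marker listed had counts in every group. The 4 T cell genes (Cd3d at 0 in both Tespa1+/+ groups, Cd3e at 0 in untreated Tespa1-/- and treated Tespa1+/+ LSKs) summed to at most 7.21 CPM and the 4 macrophage genes, none at 0 in any group, to at most 22.9 CPM in every library. Within these low sums some members moved with 5-FU in Tespa1-/- LSKs. Cd3e went from 0 to a mean of 0.914 CPM, C1qa from 0.221 to 2.34 CPM and C1qb from 0.2203 to 1.92 CPM. Being at or near 0 before treatment, these genes met the count filter only through the treated libraries, so no p-value is given for them. Cd4 fell from 5.36 to 1.83 CPM (adjusted p = 0.015). The part of these features in the values of the proteasome genes was not tested.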

How the data were processed

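Gene counts and FPKM of 12 poly(A) RNA-seq libraries of sorted LSKs were analysed. The deposited counts are whole reads per gene, and the deposited FPKM are those counts scaled by gene length and library total, made by the authors. The submitters' processing notes name CASAVA 1.8, HISAT2, StringTie, edgeR and the build GRCm38. How reads were counted, and whether by strand, is not given in the sources used here. Library totals were 22118154 to 28275079 counts, so 3 counts correspond to 0.106 to 0.136 CPM, which covers counting error only.

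The 40 genes were found by name and biotype. The members and gene lists were chosen with earlier results of these data known. Each comparison was fitted over all genes with edgeR 4.0.16 in R 4.3.3 (filterByExpr with a minimum count of 10, TMM, glmQLFit and glmQLFTest), and called at a Benjamini-Hochberg adjusted p below 0.05 over all genes tested. The SE is the size of the log2 fold change divided by the square root of F. Pairwise fits used the 6 libraries of their groups and the interaction all 12. The scripts were tested on simulated data. In these, edgeR recovered 4.5% to 8.5% of 1.25-fold changes in the pairwise comparisons and 1.3% in the interaction. A gene that did not pass may thus still differ by a fold of that size. Ratios within a pair of genes were compared by exact two-sided permutation tests over libraries. Alternatives were DESeq2 1.42.0, RLE and upper-quartile factors, library totals, 2 other filters, a replicate block, all 12 libraries in 1 fit, each library left out, the study's thresholds (unadjusted p below 0.05 and fold above 1.5) and protein subunits alone. Exonic lengths from GENCODE M21 were an alternative chosen after seeing the data. Promoter windows came from RefSeq on GRCm38.p6, and protein sequences were not used here. Any gene of the rule could be named. Values in every library were given for Psmb5 to Psmb10 and for the 3 largest rises and falls past the test in each comparison, and the genes of other lists were named from the top of each list unless said otherwise. The values of 1 gene of the MHC class I list, which its counts include, are not reported here.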

Additional observations from a re-analysis of the deposited data

Results flagged for a closer look

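The change with 5-FU differed between the genotypes by the interaction test for 2 of the 39 genes (5.13%), near the 5.01% called among all genes tested. For Psmc5 the change in Tespa1-/- minus that in Tespa1+/+ LSKs was 0.44 on the log2 scale in the fit of 12 libraries, while the separate fits of 6 libraries gave 0.28 in Tespa1-/- and -0.14 in Tespa1+/+. For Psmd13 it was 0.46, with 0.16 and -0.29 in the separate fits. Each value was above 0 under all 19 alternatives run for it, and passed at an adjusted p below 0.05 in edgeR or DESeq2 under 4 of them. The groups of 3 libraries are too small for a test of single outlying libraries.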

How the results depend on the processing

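Of 402 gene results under alternatives, 341 kept their direction and side of the threshold, 54 were no longer past it, 1 passed in addition (Psmb5 between treated genotypes, DESeq2 adjusted p = 0.032) and 6 turned direction. In the change with 5-FU in Tespa1-/- LSKs, the log2 value was 0.048 for Psmb6 without the third treated library (-0.064 to 0.048 over the libraries left out), -0.017 for Psmb7 without the first (-0.017 to 0.21), and -0.00090 for Psmb10 with upper-quartile factors. For Psmb9 between treated genotypes it was -0.0040 with upper-quartile factors, -0.087 without the second Tespa1+/+ library and -0.073 without the third Tespa1-/- library (-0.087 to 0.13). None of these 4 genes had passed.

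DESeq2 called 1 of the 39 genes for 5-FU in Tespa1+/+ (2.56%, against 12.1% of all genes), 1 between untreated genotypes (8.37% of all genes), 11 between treated genotypes (28.2%, against 17.3%) and 5 for the interaction (12.8%, against 8.21%). All 12 libraries in 1 fit gave 2 calls for 5-FU in Tespa1+/+ (5.13%, against 11.3%). The study's thresholds gave 1 for 5-FU in Tespa1-/- and 1 between treated genotypes. The interaction gave 1 call with upper-quartile factors, 0 with library totals and 0 without the count filter, where 4.55%, 4.54% and 2.01% of all genes were called. Leaving out 1 library gave 7 to 12 calls for 5-FU in Tespa1-/-, 0 to 1 between untreated genotypes, 3 to 5 between treated genotypes and 0 to 1 for the interaction, where 12.6% to 17%, 1.9% to 4.51%, 8.37% to 9.47% and 2.89% to 4.34% of all genes were called.

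The median over the 39 genes was 0.014 with library totals and -0.059 over protein subunits alone for 5-FU in Tespa1+/+. With upper-quartile factors it was 0.094 for 5-FU in Tespa1-/-, 0.037 between untreated genotypes, 0.11 between treated genotypes and 0.12 for the interaction. Library totals gave 0.12 between treated genotypes and 0.15 for the interaction, and the stricter count filter 0.18 for the interaction. Leaving out 1 library gave -0.067 to 0.026, 0.12 to 0.17, -0.037 to 0.0095, 0.14 to 0.19 and 0.15 to 0.22 in the order of the 5 comparisons. The cause of these shifts was not tested. With M21 lengths the untreated Tespa1+/+ ratios were 3.79 (Psmb8 to Psmb5), 0.196 (Psmb9 to Psmb6) and 1.51 (Psmb10 to Psmb7).

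The replicate numbers did not pair the libraries: same-numbered libraries had correlations of their deviations from -0.065 to 0.027, and a library correlated best with its own number in 10 of 36 cases. With the replicate number as a block, the interaction gave 0 calls (adjusted p = 0.053 for Psmc5 and 0.055 for Psmd13) and Psmd7 between treated genotypes was lost (0.051).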
